A study of Arabidopsis thaliana with 6 samples.

Results

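The regions described here are 1141 H3K9Ac peaks that were called in air-treated *ein2-5* seedlings at high signal and had no counterpart in ethylene-treated ones. They are the air peaks with a summit pileup of at least 75 that no ethylene peak overlapped by 1 bp or more. Pileup is the number of sequenced tags, each extended to 200 bp, that cover the summit, scaled to the size of the control library. Of the 10472 air peaks that reached this pileup, 1141 (10.9%) had no ethylene peak, against 6031 of all 18314 air peaks (32.9%). The remaining 9331 high-signal air peaks were shared with the ethylene list, which holds 12864 peaks, and are the peaks the comparisons use. The regions were thus selected on the air pileup and the absence of an ethylene peak, so their counts and signal values are a description of the lists and were not tested.

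All samples were whole seedlings of *ein2-5*, a line that has lost the function of EIN2 and does not respond to ethylene. After 3 days of growth in darkness they spent 4 h in 10 ppm ethylene or in air. For either treatment the authors pooled both H3K9Ac libraries (2 in ethylene and 2 in air) and called peaks against a single control library, so a single list stands for each treatment and variation among seedlings cannot be read from it. The sample labels name the control as IgG in the title and as Protein G beads in the antibody field. Wild type and other acetylation marks were not analysed here.

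The controls differed in depth more than the H3K9Ac data did. After duplicates were removed, the ethylene list rests on 43572576 H3K9Ac tags and 4354374 control tags, and the air list on 45582654 H3K9Ac tags and 13726993 control tags. MACS2 scaled the H3K9Ac data down to the control, by 0.0999 in ethylene and by 0.301 in air, so a pileup of 75 in air stands for 250 tags. The ethylene list gives no value where no peak was called. The treatment and the depth of the control cannot be told apart here.

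Acetylation of lysine 9 of histone H3 is laid down by histone acetyltransferases and removed by histone deacetylases. It marks nucleosomes at the start of transcribed genes, most strongly just downstream of the transcription start site (TSS). Many plant genes for ribosomal proteins, mitochondrial proteins and other constantly needed products carry site II elements shortly before their TSS, short GC-rich words that are bound by TCP transcription factors.

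The genes of these regions differed from those of shared high-signal peaks in what lay upstream of their TSS, and the sequences below show the words in question. The capitals mark TGGGCC or TGGGCT, here called site II, on either strand. Each stretch ends 1 base before the TSS on the strand given, except for the gene pairs that face away from each other, for which all bases between both start sites are shown. The sequences are from the RefSeq genome TAIR10.1, in coordinates shared with TAIR10. The first 9 were chosen because they carry the words in the pairs, ribosomal protein, proteasome, chromatin, RNA decay and plastid genes described further on. The last 3 carry none and belong to regions that are named for other reasons.
MAGO and ALG12 (chr1:404457-404599, plus strand): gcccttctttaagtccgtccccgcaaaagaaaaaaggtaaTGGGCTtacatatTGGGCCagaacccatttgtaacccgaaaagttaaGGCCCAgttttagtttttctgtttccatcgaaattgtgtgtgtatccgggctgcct
AT5G27460 and AT5G27470 (chr5:9694845-9694937, plus strand): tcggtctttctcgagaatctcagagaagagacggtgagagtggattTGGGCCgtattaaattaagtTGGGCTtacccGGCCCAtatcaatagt
RPL27AB (AT1G23290, chr1:8262805-8262924, plus strand): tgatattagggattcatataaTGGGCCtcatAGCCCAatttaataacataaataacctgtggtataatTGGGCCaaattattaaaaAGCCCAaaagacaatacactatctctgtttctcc
RPN1A (AT2G20580, chr2:8858842-8858961, plus strand): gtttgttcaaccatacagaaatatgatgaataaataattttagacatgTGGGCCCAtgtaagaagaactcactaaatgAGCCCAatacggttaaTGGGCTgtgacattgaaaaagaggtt
PAD1 (AT3G51260, chr3:19030806-19030925, plus strand): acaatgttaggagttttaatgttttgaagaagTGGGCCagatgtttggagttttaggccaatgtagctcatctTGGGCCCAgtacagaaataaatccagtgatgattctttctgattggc
RPS9 (AT1G74970, chr1:28159318-28159437, minus strand): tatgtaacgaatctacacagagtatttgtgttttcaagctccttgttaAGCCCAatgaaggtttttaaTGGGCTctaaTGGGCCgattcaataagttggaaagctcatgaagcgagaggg
XRN4 (AT1G54490, chr1:20349989-20350108, plus strand): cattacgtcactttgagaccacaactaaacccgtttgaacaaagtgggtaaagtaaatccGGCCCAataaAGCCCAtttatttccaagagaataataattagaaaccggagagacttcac
HDA15 (AT3G18520, chr3:6361039-6361158, plus strand): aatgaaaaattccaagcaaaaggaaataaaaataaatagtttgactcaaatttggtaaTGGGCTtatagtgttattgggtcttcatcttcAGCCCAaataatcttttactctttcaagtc
OEP7 (AT3G52420, chr3:19429566-19429685, plus strand): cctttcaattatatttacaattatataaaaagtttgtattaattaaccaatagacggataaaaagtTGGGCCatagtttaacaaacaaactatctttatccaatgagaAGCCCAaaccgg
EF1A (AT1G07930, chr1:2458064-2458183, plus strand): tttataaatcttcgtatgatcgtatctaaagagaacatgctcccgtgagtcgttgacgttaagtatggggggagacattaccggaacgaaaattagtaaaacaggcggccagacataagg
LHCB4.1 (AT5G01530, chr5:208746-208865, plus strand): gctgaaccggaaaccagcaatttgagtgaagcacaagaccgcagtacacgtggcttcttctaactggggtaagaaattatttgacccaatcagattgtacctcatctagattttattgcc
FUS6 (AT3G61140, chr3:22626047-22626166, plus strand): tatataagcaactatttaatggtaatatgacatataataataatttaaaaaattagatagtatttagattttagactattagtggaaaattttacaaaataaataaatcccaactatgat

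The pair MAGO and ALG12 shares 3 site II copies between start sites 144 bp apart, and the pair AT5G27460 and AT5G27470 shares 3 copies between start sites 94 bp apart. RPL27AB, a protein of the large ribosomal subunit, has copies that start 99, 89, 52 and 34 bp before the TSS.

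Air-only regions thinned out as the number of tags rose. Of air peaks with 250 to 259 tags at the summit, 279 of 1125 (24.8%, 95% Wilson interval 22.4 to 27.4%) had no ethylene peak. The share was 14.5% (12.6 to 16.6%) at 270 to 279 tags, 6.93% (5.88 to 8.15%) at 300 to 319 tags and 2.03% (1.57 to 2.62%) at 320 to 399 tags. Below the threshold, at 124 to 249 tags, it was 62.4% (61.3 to 63.4%). The share was lower in each higher range of tags. Intervals cover counting error only, since peaks are not replicates of a treatment.

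**Figure D1:**
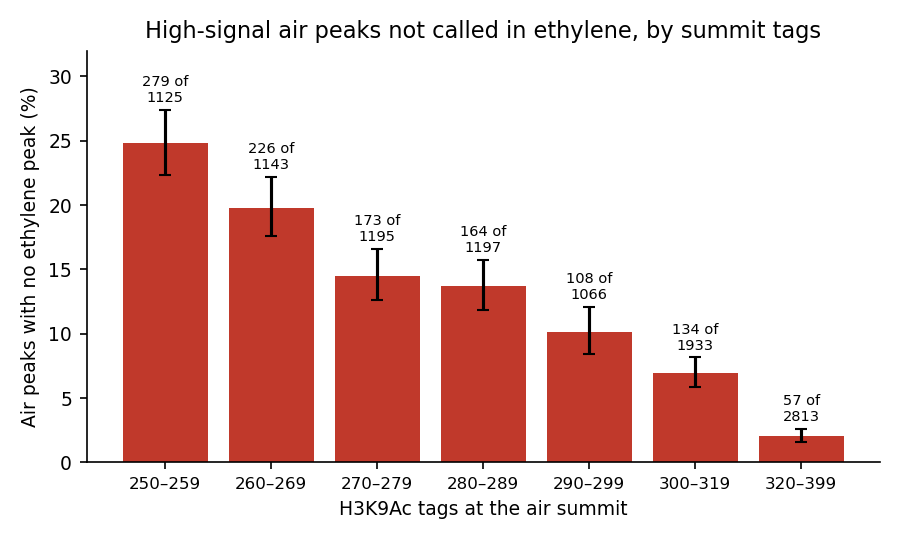
Share of high-signal air peaks that no ethylene peak overlaps (y axis, percent) by the number of H3K9Ac tags at the air summit (x axis). Bars give the share, error bars the 95% Wilson interval, and the numbers above them the air-only peaks of all air peaks in that range; the share is 24.8% at 250 to 259 tags and 2.03% at 320 to 399 tags.

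The regions sat at the lower end of the high-signal range. Their summits held a median of 273 tags (250 to 389), against 298 tags (250 to 396) at shared high-signal peaks, of at most 400 tags that can cover a point when each position and strand counts once. Their median fold enrichment over the local background was 2.43, against 2.65 at shared peaks. At the threshold itself, 35 regions had 250 tags and a pileup of 75.29, among them AT1G04590, the phosphatidylinositol 4-kinase gene ATPI4K ALPHA and the transporter gene ABCI13. Just outside it, 34 air-only peaks had 249 tags and a pileup of 74.99, among them the ubiquitin-specific protease gene UBP15, AT1G21400 and AT1G29880. Fold enrichment was 2.33, 2.30 and 2.12 at those inside and 2.38, 1.81 and 2.37 at those outside.

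The local background was almost the same in both sets. It is the number of control tags that MACS2 expected at the summit, and it follows from the pileup and the fold enrichment as (pileup + 1) / fold enrichment - 1. Its median was 34 control tags (23.1 to 65) at the air-only regions and 33.4 (23.1 to 64) at shared high-signal peaks, a ratio of medians of 1.02 (0.976 to 1.02, the ends of the medians' intervals set against each other). The median over all air peaks was 32 control tags. The genome-wide mean of 23.1 is the lowest value the background can take, since MACS2 uses the largest of several estimates. The background was a whole number at 69.0% of the regions and at 69.4% of shared peaks, which is the form it takes when the 200 bp around the summit set it, and the genome-wide mean set it at 3 regions.

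With that background subtracted from the pileup, the same threshold was stricter and few peaks of either set were left. A subtracted pileup of at least 75 was reached by 1 air-only peak and by 423 peaks shared with the ethylene list. Without subtraction the numbers were 1141 and 9331. That peak belongs to AT3G26512, an uncharacterized protein, with 369 tags, a background of 33.6 and a subtracted pileup of 77.5.

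Position relative to the call limit was read in both lists. A summit can be called only where its Poisson p against the background is at most 0.01. That sets the highest background that a given number of tags can bear. The limit concerns the summit alone and leaves out the breadth of the stretch that passes. At 273 tags this limit is 17.2 control tags in the ethylene list and 63.3 in the air list, or 2.35 and 2.74 times the genome-wide mean of each. The air background reached a median of 52.5% of the air limit at the air-only regions and at most 85.7%, against a median of 47.8% at shared high-signal peaks. In the ethylene list, the peaks at the shared sites reached a median of 67.3% of their limit, and 755 of 9329 (8.09%) lay above 90% of it. No shared air peak but 1 lay so close to the air limit. These air peaks were chosen to have at least 250 tags, while the ethylene peaks were not filtered by tags.

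**Figure D2:**
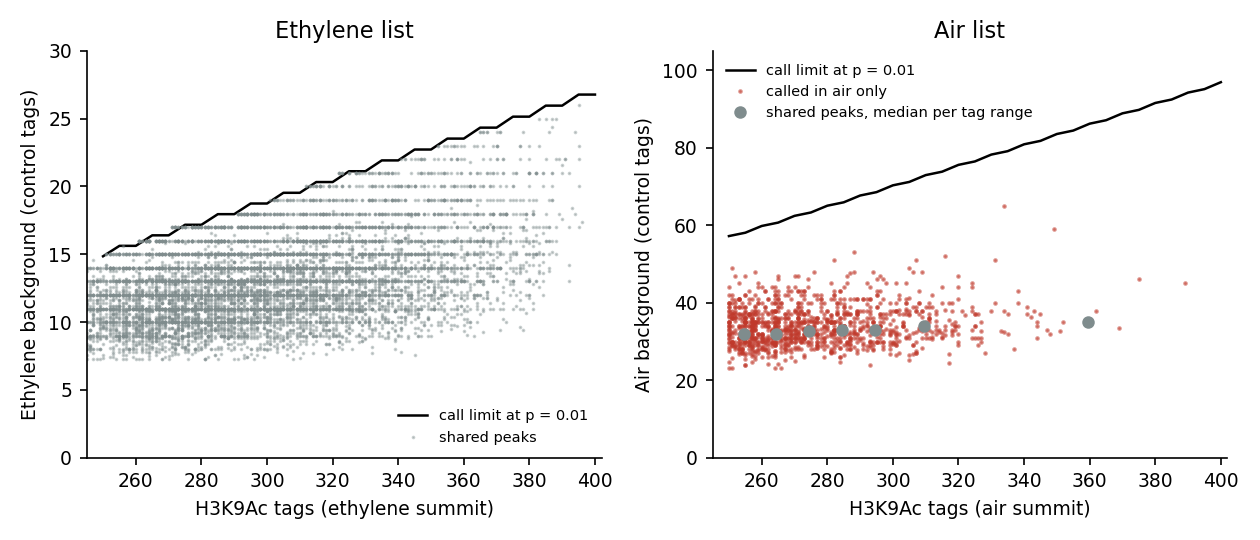
Background in control tags (y axes) against H3K9Ac tags at the summit (x axes), in the ethylene list for peaks at shared high-signal sites (left, grey points) and in the air list for the air-only regions (right, red points) with the medians of shared peaks per tag range (grey circles). Black lines give the highest background at which a summit is still called; ethylene points reach up to the line, while the air-only regions reach at most 85.7% of the air limit, and most ethylene peaks under 250 tags lie outside the left axis.

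Suppose the H3K9Ac tags in ethylene were the same as in air. The summits would then pass up to an ethylene background of 14.9 control tags at 250 tags, 18.7 at 300 and 26.0 at 389. Whether a stretch broad enough for a call would pass as well is not known. The ethylene background at shared high-signal sites was 12.8 at the median and ran between 7.32 and 26.0. A peak was called at each of these sites, so their background could not exceed the limit for their own tags. That range is therefore no measure of the background at the air-only regions. At shared peaks with 250 to 259 tags in air, the ethylene summit held a median of 255 tags over a background of 11.0. Neither tags nor background in ethylene are known for the air-only regions themselves.

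The distance to the nearest ethylene peak is given without a comparison value, and the rule excludes overlap. It was a median of 3103 bp (154 to 68183 bp), and an ethylene peak lay within 500 bp of 101 regions (8.85%) and within 2000 bp of 350 (30.7%). The regions were assigned to 1140 genes, the nearest within 5 kb, and an ethylene peak was assigned to 47 of these genes as well. Of all 27444 protein-coding genes 11516 had an ethylene peak, but the rule leaves out overlapping ethylene peaks, which shapes the count of 47. Another air peak was assigned to 95 of the 1140 genes, given without a comparison value. The converse case did not occur: none of the 9440 ethylene peaks with at least 250 tags lacked an air peak, and of all 12864 ethylene peaks 46 did.

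The regions were narrower than shared high-signal peaks. Their breadth, the stretch that passed the threshold, had a median of 539 bp (223 to 1867 bp), against 714 bp (224 to 3493 bp) at shared peaks. This held at matched tags, with 508 bp against 578.5 bp at 250 to 259 tags and 638 bp against 923 bp at 320 to 399 tags. Under 400 bp were 11.7% of the regions and 2.45% of shared peaks, and over 1000 bp were 31 regions (2.72%) and 22.3% of shared peaks. Breadth belongs to the same calls that chose the regions and is given as a description.

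Most regions marked the 5′ end of a gene. Peaks that touched the start site itself, or the stretch up to 200 bp after it, counted as TSS peaks, which was so for 931 regions (81.6%, 79.2 to 83.7%) and for 76.3% of shared high-signal peaks (75.4 to 77.1%). A further 167 regions (14.6%) lay elsewhere inside genes, 29 (2.54%) reached into a 3′ UTR, and 14 (1.23%) lay between genes. Pseudogenes were left out of these classes, and some of the 14 had their summit in an exon of a pseudogene. The share with the summit within 500 bp of a TSS was 90.4% (88.5 to 91.9%) among the regions and 77.8% (76.9 to 78.6%) among shared peaks. For peaks classed as TSS, the summit lay a median of 259 bp downstream of the assigned gene's TSS in the regions and 299 bp at shared peaks. Summits fell in coding sequence at 661 regions, in a 5′ UTR at 232 and in an intron at 206.

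**Figure D3:**
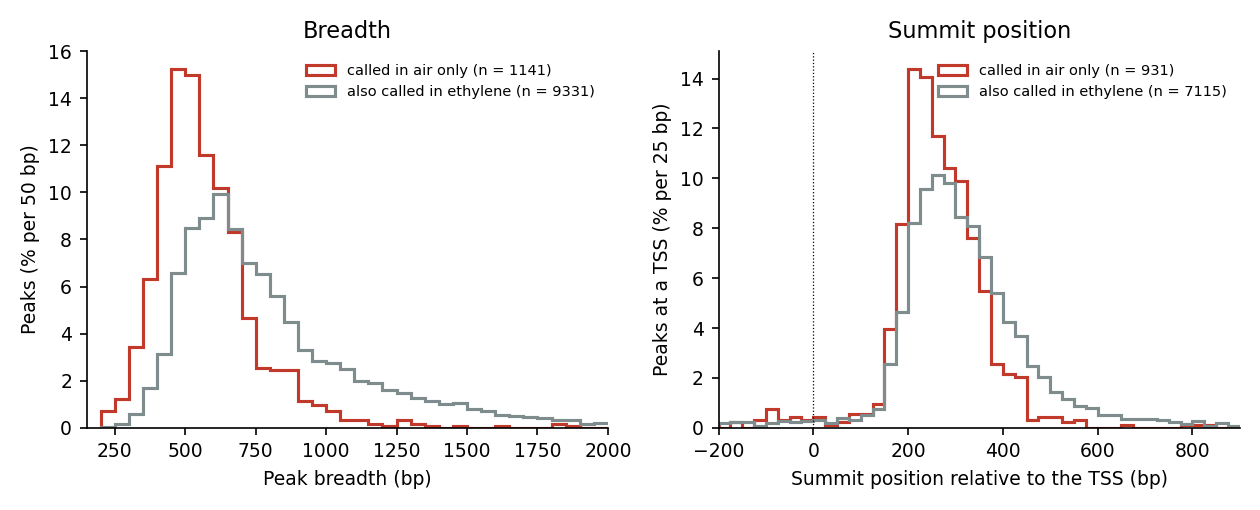
Breadth of the peaks (left, x axis in bp, y axis in percent of peaks per 50 bp) and position of the summit relative to the TSS for peaks at a TSS (right, x axis in bp, y axis in percent per 25 bp), for air-only regions (red) and shared high-signal peaks (grey). The air-only regions peak at a smaller breadth, with a median of 539 bp against 714 bp, and closer to the TSS, with a median of 259 bp against 299 bp; the axes leave out the far tails.

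Site II was more frequent before the genes of the air-only regions. Among 894 protein-coding genes assigned a region classed as TSS, 340 (38.0%, 34.9 to 41.3%) had TGGGCC or TGGGCT on either strand in the 250 bp before their TSS. The class counts the start site of any gene, so the site touched could be that of another gene. The share was 24.3% (23.3 to 25.4%) for 6744 genes assigned a shared high-signal peak of that class and 19.2% (18.7 to 19.7%) for all 27444 protein-coding genes. The difference of 13.7 percentage points between air-only and shared genes has an interval of 10.4 to 17.1. These words are in the DNA and did not enter the choice of the regions, but the search for them was made after the lists had been seen. Of the air peaks under the threshold, 32.01% of air-only ones and 22.4% of shared ones had site II.

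The same words led an unguided count. Of all 2080 words of 6 bases, with both strands merged, GGCCCA (the reverse complement of TGGGCC) had the largest difference, present before 30.1% of air-only genes and 18.1% of shared ones. The next were the word AGGCCC with a difference of 9.68 points, the word ATGGGC with 9.50 and the word AGCCCA with 9.31, which overlap site II or are part of it. At the other end stood AAAATA, present before 60.2% and 66.2%.

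Copies were often repeated and lay near the TSS. At least 2 copies, with overlapping ones counted once, stood before 26.8% of air-only genes (24 to 29.8%) and 16.4% of shared ones (15.6 to 17.3%). Copies started a median of 72 bp before the TSS in air-only genes and 74 bp in shared genes. The stretch from 100 to 51 bp before the TSS held a copy in 21.1% and 12.4%, and the stretch from 250 to 201 bp held one in 3.24% and 2.40%. In both sets the copies were most frequent in the 100 bp next to the TSS.

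**Figure D4:**
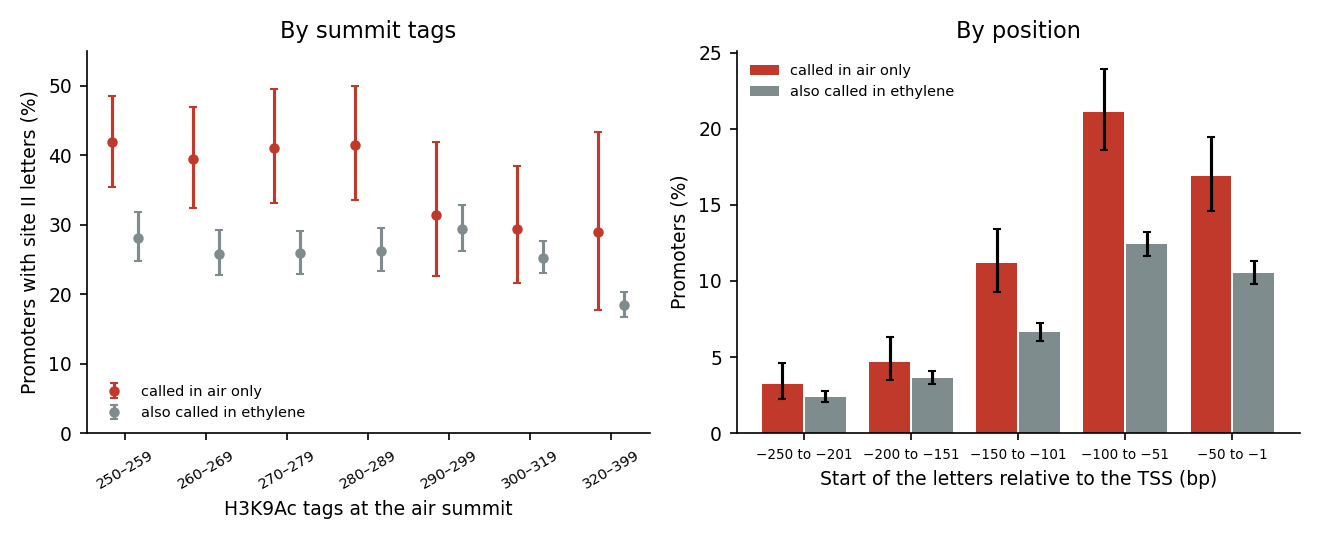
Share of protein-coding genes with site II (TGGGCC or TGGGCT, either strand) in the 250 bp before the TSS (y axes, percent), by tags at the air summit (left) and by the place where the letters start, in bp relative to the TSS (right), for genes with air-only regions (red) and with shared high-signal peaks (grey). Error bars are 95% Wilson intervals; the share is 41.9% against 28.1% at 250 to 259 tags and 21.1% against 12.4% between 100 and 51 bp before the TSS.

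The difference was also read within ranges of tags, breadth and summit position. At 250 to 259 tags, 41.9% of air-only genes and 28.1% of shared genes had site II, and at 280 to 289 tags 41.5% and 26.3% did. The gap was smaller at 290 to 299 tags, with 31.4% (22.6 to 41.8%) and 29.4% (26.2 to 32.8%), whose intervals overlap, as they do at 300 to 319 and at 320 to 399 tags. Among peaks under 650 bp wide the shares were 41.4% and 32.2%, a difference of 9.17 points, but split into 5 ranges of breadth the intervals overlap in all but that of 450 to 549 bp, with 40.9% (35.3 to 46.8%) and 32.1% (29.5 to 34.9%). Where the summit lay 200 to 249 bp from the TSS they were 50.6% and 37.3%, and where it lay 400 bp or more they were 19.3% and 12.4%. By summit position the intervals overlap at 1 to 199 bp, at 300 to 399 bp and from 400 bp on, and not between 200 and 299 bp. The part of tags, breadth and summit position in the difference was not tested beyond these splits.

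The background was slightly higher at genes with site II. At shared high-signal peaks, the ethylene background averaged 13.1 control tags with site II and 12.9 without, and the air background 34.4 and 33.9. At 250 to 259 tags the ethylene means were 11.8 and 11.0 and the air means 33.4 and 32.5. The mean was higher with site II in each range of tags in both lists, and its part in the difference was not tested.

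Other words differed by fewer percentage points, though they were also rarer except for TATAAA. The telo-box AAACCCTA, a word of ribosomal protein promoters, stood before 5.48% of air-only genes (4.17 to 7.17%), 3.35% of shared genes (2.95 to 3.81%) and 4.49% of all protein-coding genes. The TATA box word TATAAA was present in 41.8% (38.6 to 45.1%) and 45.9% (44.7 to 47.1%). Shares for the light- and hormone-related G-box CACGTG were 8.84% and 8.41%, for the GCC box GCCGCC, bound by ethylene response factors, 3.24% and 2.05%, and for the evening element AAATATCT of clock genes 3.80% and 4.97%. Intervals of the air-only and shared shares overlap for TATAAA and for these last words, and do not overlap for the telo-box.

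The genes themselves were longer and had more exons. Their median length was 2563.5 bp with 7 exons, against 2344.5 bp with 5 exons for genes with a shared high-signal peak, and 6.38% against 12.4% had a single exon. A protein-coding gene on the other strand started within 500 bp upstream of 187 air-only genes (20.9%, 18.4 to 23.7%) and of 14.3% of shared genes (13.45 to 15.1%). Among genes without such a neighbour, site II was present in 36.2% and 21.3%. In 12 of these head-to-head pairs each gene had an air-only region of its own, among them MAGO and ALG12, TOM22-I and PRP39, and TAF4 and AT5G43140.

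Genes of protein synthesis were among the regions. Of the regions, 33 (2.89%, 2.07 to 4.03%) were assigned to genes whose product name holds the words ribosomal protein, against 2.01% (1.75 to 2.32%) of shared high-signal peaks, and these intervals overlap. The words also match the translation elongation factor genes LOS1 and AT2G18110, both with site II, which are counted under elongation factor below as well. The 33 regions had 250 to 341 tags, and 24 of the 30 at a TSS had site II (80.0%, 62.7 to 90.5%). For shared peaks with such product names the share was 64.8% (57.3 to 71.7%), and these intervals overlap. Without these genes site II stood before 36.6% of air-only and 23.3% of shared genes. RPL27AB had the most tags of the 33, with 341 tags in a peak of 620 bp over a background of 37. RPS9, with 250 tags in a peak of 280 bp, the narrowest of the 33, over a background of 36.6, had the fewest tags together with AT5G23900, of the ribosomal protein L13e family. A gene of the ribosomal protein S26e family, AT2G40510, had 256 tags, and 16.4% of its 51 bp windows occur elsewhere in the genome, where uniquely mapped reads cannot fall.

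Products naming tRNA, chiefly the synthetases that load amino acids onto tRNA and tRNA-modifying enzymes, accounted for 16 regions (1.40%, 0.865 to 2.27%) and 0.632% (0.491 to 0.815%) of shared peaks. ALATS, for alanine, had 270 tags in a peak of 571 bp, and AT5G27470, for serine, had 324 tags in a peak of 482 bp. Products naming an elongation factor accounted for 7 regions (0.613%, 0.297 to 1.26%), 5 of them with site II, and for 0.311% (0.216 to 0.446%) of shared peaks, and the intervals overlap. They include LOS1, the elongation factor 2 of translation, with 284 tags, but also elongation factors of transcription such as TFIIS, with 256 tags, and a rubber elongation factor protein, AT3G05500, with 269 tags. The words elongation factor were fixed beforehand, while tRNA was chosen after the names had been read. So were the proteasome, photosynthesis and bromodomain or acetyltransferase words of the paragraphs below. Over the product words found in at least 40 genes, 146 in all, those highest in air-only genes besides generic terms were subunit (4.82% of air-only and 3.32% of shared genes) and ribosomal (3.68% and 2.32%). At the other end stood family (22.7% and 24.3%) and kinase (4.56% and 5.50%). Of the words fixed beforehand, transcription factor (0.964% of regions and 1.58% of shared peaks), kinase, transporter and hypothetical or unknown were rarer at the regions, with overlapping intervals. Histone was level, at 0.526% and 0.525%, and the word also matched the acetyltransferase genes HAC5 and HAC12 and the deacetylase gene HDA15. Heat shock or chaperone (1.23% and 0.986%) and transposon (0.175% and 0.0214%) were more frequent at the regions, with overlapping intervals. Transposon rests on 2 regions and 2 shared peaks.

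The proteasome, which degrades proteins tagged with ubiquitin, gave 7 regions (0.613%, 0.297 to 1.26%) and 0.268% (0.182 to 0.395%) of shared peaks. They had 256 to 303 tags, and 4 had site II, among them a proteasome inhibitor-like gene. RPN1A, a subunit of the regulatory particle that receives substrates, had 263 tags over 31, and PAD1, a subunit of the core particle, had 258 tags over 29. The core subunits PBE1 and PBD2 had 274 and 303 tags and no site II. The count is small, and the intervals of the air-only and shared shares overlap.

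Photosynthesis genes among the regions had no site II. Of the 7 regions at genes for light-harvesting or photosystem proteins, which etiolated seedlings prepare for the light, none had site II in the 250 bp before the TSS. LHCB4.1, an antenna protein of photosystem II, had 362 tags in a peak of 1113 bp, and LHCB4.2 had 277 tags in a peak of 626 bp. The photosystem I subunit gene PSAL had 293 tags over a background of 24. Their share was 0.613% (0.297 to 1.26%), against 0.236% (0.156 to 0.357%) of shared peaks, and these intervals overlap.

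Genes that write, remove or read acetylation were among the regions. Of 16 genes on a list of histone acetylation, 3 had an air-only region, 8 a shared high-signal peak and 12 any air peak. HAC5 and HAC12, acetyltransferases of the CBP family, had 289 tags over 32 and 265 tags over 33 control tags. The deacetylase gene HDA15 had 268 tags over 32.2, with 2 site II copies within 120 bp of the TSS. Product names with a bromodomain, which binds acetylated lysine, or a histone acetyltransferase accounted for 6 regions (0.526%, 0.241 to 1.14%), HAC5 and HAC12 included, against 0.129% (0.0736 to 0.225%) of shared peaks and 0.142% of all air peaks. The bromodomain genes GTE3 and GTE4, whose product names hold neither word and which are not among the 6, had 351 and 276 tags.

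Over all 27444 protein-coding genes, 1100 had an air-only region and 8799 a shared high-signal peak, which is the background for the short gene lists. On a list of 17 genes of ethylene signalling, XRN4 was the only one with an air-only region, while 12 had a shared high-signal peak and 16 any air peak. XRN4, a cytoplasmic exoribonuclease that acts on transcripts of the pathway, had 284 tags in a peak of 506 bp over a background of 41, and the nearest ethylene peak lay 6627 bp away. Of 15 constitutively active genes 2 had an air-only region and 10 a shared one, and of 9 genes of growth in the dark none had an air-only region and all 9 a shared one. The constitutive genes were AT2G28390, of the SAND family, with 303 tags, and AT1G07930, here EF1A, with 257 tags over a background of 24.6. AT1G07930 encodes the translation elongation factor 1-alpha and has close copies in the genome, but none of the 51 bp windows of its peak was repeated.

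The 10 regions with the most tags had 345 to 389. AT5G60680, whose product has a domain of unknown function, had 389 tags in a peak of 1468 bp, and EXL2, of the EXORDIUM family, had 375 tags in a peak of 1138 bp that reached the 3′ UTR. AT3G26512 and LHCB4.1 followed with 369 and 362. Next came the transporter gene UMAMIT1 with 352 tags, GTE3 with 351, the chaperone gene AT1G77930 with 349, EDA6 with 348, AT1G19485 with 347 and the plastid envelope gene OEP7 with 345. Among them OEP7 and AT1G19485 had site II, and it was not searched for EXL2, UMAMIT1 and GTE3, whose regions were not at the TSS.

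The broadest regions were those of BEH4, AT3G26512, CDF3, ZW9 and AT5G60680, with 1867, 1848, 1832, 1645 and 1468 bp. BEH4 is a relative of the brassinosteroid regulators BES1 and BZR1, and CDF3 is a DOF transcription factor of the flowering pathway. They reached these breadths at 324 tags for BEH4 and 255 tags for CDF3, and none of the 5 had site II.

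The 10 regions with the lowest fold enrichment lay between 1.53 and 1.70. FUS6, a subunit of the COP9 signalosome that represses light development in the dark, had 251 tags over a background of 49 and the lowest value, 1.53. AT5G52530 had 334 tags over 65, the highest background of all regions, and a fold enrichment of 1.54. SEC10, a subunit of the exocyst, which tethers vesicles, had 288 tags over 53, and the polyadenylation factor gene FIP1[V] had 252 tags over 47. AT1G77930 had the next highest background after AT5G52530, with 59, and AGL44 and AT1G70480 had 52 and 51. Of the 10 regions with the lowest fold enrichment, AT2G37150 had site II, and it was not searched for AT1G70640 and AT4G03030.

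The regions were spread over the genome, with 290, 159, 235, 173 and 284 on chromosomes 1 to 5. When regions with summits at most 20 kb apart were joined, 723 stood alone and 418 fell into groups, most of them pairs (143). The largest group held 6 regions on chromosome 1, at SBI1, RA-5, MAGO, ALG12, AT1G02160 and MC1, between 389880 and 412369. All but MC1 had site II. The next held 5 regions on chromosome 3, at RAPTOR1, AT3G08920, LHCB4.2, AT3G08960 and AT3G09000. Base composition of the peaks was alike, with a median GC content of 40.1% in the regions and 40.3% in shared high-signal peaks. Within 100 bp of the summit it was 43.3% and 44.3%, and in the 10000 bp around the summit 37.1% and 36.6%, with intervals that do not overlap. Upstream of the protein-coding genes searched for site II, GC content was 32.6% for air-only and 31.2% for shared genes. Its part in the site II difference was not tested.

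Few regions lay outside protein-coding genes or in repeated sequence. Protein-coding genes took 1101 regions (96.5%), long non-coding RNA genes 21, small nucleolar RNA genes 10 and microRNA genes 1, MIR173, whose product starts a small interfering RNA cascade, with 294 tags. The intergenic regions had 251 to 316 tags, the highest at AGL44, 1523 bp from the gene and with its summit in an exon of a pseudogene. A 51 bp window that occurs more than 1 time in the genome was found in 51 regions (4.47%, 3.42 to 5.83%) and in 3.70% of shared high-signal peaks (3.33 to 4.10%). No region was repeated over more than 25.7% of its windows.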

How the data were processed

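H3K9Ac ChIP-seq and control libraries of *ein2-5* seedlings were aligned by the authors with Bowtie 1.1.2 to TAIR10, and peaks were called with MACS2 2.1.0.20150603, per the submitters' processing notes. Per the file headers, both H3K9Ac libraries of a treatment were pooled, 1 tag was kept per position and strand, tags were extended to 200 bp, the p-value threshold was 0.01 and the effective genome size 1.19e+08. The deposited lists give the summit pileup (signal coverage, scaled to the control), the fold enrichment (a ratio) and the −log10 of the p-value and q-value, all made by the authors. No counts per library were used.

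The background was recovered as (pileup + 1) / fold enrichment - 1. The p-value recomputed from it lay within 0.02 of the deposited −log10 value for 100% of ethylene and 99.3% of air peaks, and every pileup came out as a whole number of tags within 0.05. Peaks were assigned to the nearest TAIR10.1 RefSeq gene within 5 kb, pseudogenes left out, and classed as TSS (touching the start site or up to 200 bp after it), then 3′ UTR, intragenic or intergenic. Summits lay within 500 bp of a TSS for 73.7% of air peaks in these coordinates. Shares have 95% Wilson intervals, and no test was run, since each treatment has 1 list. Site II copies that overlap were counted once. The calculations used Python 3.11.15, numpy 2.4.6, pandas 2.3.3, scipy 1.17.1 and matplotlib 3.10.9 and were tested on simulated data.

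The regions and lists were chosen with earlier results of these data known. By rule, the text names the 10 regions of highest pileup, the 10 of lowest fold enrichment, the 5 broadest, the 5 of highest background, up to 15 in the largest groups within 20 kb, those on a gene list, and 3 on each side of the threshold. Some are given only in ranges. The genes named for their family, promoter words or gene type were chosen after their values were seen, as were the site II search and its alternatives. Other alternatives varied the pileup threshold, the overlap, filters on either list, the background, the gene models and the repeat window.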

Additional observations from a re-analysis of the deposited data

How the results depend on the processing

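Of 64 values under alternatives, 41 stayed within their margins and 23 moved. For shares, ratios, differences and distances the margin was the interval of the main value. Counts of regions and genes had a wide margin, set as a fold change. The 1703 regions and 1694 genes at a pileup of at least 70 thus count as having stayed, against 1141 and 1140. The number of air-only regions and of their genes was 410 and 410 with a pileup of at least 85, 2832 and 2822 when an ethylene peak had to cover 50% of the length, 2007 and 2002 with ethylene peaks of q at most 0.05, and 3734 and 3713 with ethylene peaks of fold enrichment at least 2. With the background subtracted it was 1 region, so nothing else was computed there. The ratio of backgrounds was 0.976 under the 50% rule. The share at a TSS was 78.8% under the 50% rule, 78.3% with fold enrichment at least 2, and 90.4% for summits within 500 bp of a TSS. Repeated windows of 36 bp occurred in 8.24%. The median distance to an ethylene peak was 2892.5 bp at a pileup of 85, 3387 bp when peaks within 500 bp counted as shared, 0 bp under the 50% rule, 3438 bp under the q rule and 3944 bp under the fold enrichment rule. The site II difference of 13.7 percentage points was 9.46 under the 50% rule, 10.3 under the q rule, 9.13 under the fold enrichment rule and 9.17 among peaks under 650 bp wide, the last chosen after seeing the data; in its other alternatives it lay between 10.6 and 14.9. The causes of these shifts were not tested. No paired analysis was possible because the replicates of a treatment were pooled into 1 list, and no replicate could be left out for the same reason. The ethylene control held 4354374 tags and the air control 13726993, and the part of control depth in the calls was not tested.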
